A study of Mus musculus with 2 samples.

Results

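Motile cilia and choroid plexus genes were read in the midbrain of newborn mice. The set held 40 genes of the 43346 Ensembl genes in the tables. It was chosen by name, through the gene annotation, as regulators of ciliogenesis, axoneme parts, ependymal markers and choroid plexus markers, with no use of their values in the rule. All 40 were found. Of these, 35 belonged to motile cilia and the cells that carry them, and 5 to the choroid plexus.

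The series measured total RNA from the midbrain of mice of the strain B6NCrl at postnatal day 0, the day of birth. The labels put 2 animals in 1 group: replicate 2 is pup 3 and replicate 1 is pup 1, and each gave 1 midbrain and 1 library. The labels name no allele, transgene or agent, give both animals the same donor identifier, and state that sex was not collected. Extraction used the mirVana method, the starting quantity was 10 ng and the size range was above 200 nucleotides, a design that gives no contrast between conditions. The expected counts summed to 40769103 in pup 3 and 36934868 in pup 1. Levels are in TPM, a share of all transcripts that is scaled to the library and divided by transcript length, and are given as pup 3 and pup 1 or as mean ± SD over the 2 pups.

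Motile cilia beat, and in the brain they stand in tufts on the ependymal cells that line the ventricles and the aqueduct of the midbrain. Their core, the axoneme, is a ring of doublet microtubules around a central pair: dynein arms on the doublets make the force, nexin links and radial spokes regulate it, and further proteins sit inside the tubules. In mice ependymal cells arise from radial glia and grow their cilia mainly after birth. The choroid plexus is an epithelium that secretes cerebrospinal fluid; it hangs in the ventricles in front of and behind the midbrain, while the aqueduct itself has none.

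Many cilia genes carry in their promoters an X-box, the site that RFX factors such as Rfx2 and Rfx3 bind. Promoters, 250 bases before to 50 after the start of a gene, were taken from RefSeq (GRCm38.p6) and found for 34 of the 40 genes. For the motile cilia genes these were 35 promoters of 32 genes. Both strands were searched. The core RFX motif GTTGCC was found in 14 of the 35 promoters (40%), against 12.5% of all 32851 promoters in the table. The full RFX palindrome, GTTNCC followed by 3 bases of any kind and GNAAC, can contain the core motif and was found in 5 of the 35 (14.3%), against 0.804% of all promoters. The 5 genes were Spag16, Enkur, Hydin, Cfap44 and Tekt4. The forkhead site GTAAACA, in the class that Foxj1 binds, was found in 2 of the 35 promoters (5.71%), those of Ak7 and Cfap43, against 3.65% of all. These are matches of letters, not measured binding. The 5 palindromes are shown in windows of 60 bases because they let the spread of the motif be seen across genes whose levels differ widely. Each window is read 5′ to 3′ on the strand of the gene, and capitals mark the palindrome. In Hydin, Cfap44 and Tekt4 the pattern matches on the opposite strand, so the capitals show its reverse complement.
Spag16: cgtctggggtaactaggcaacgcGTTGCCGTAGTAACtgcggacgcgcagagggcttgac
Enkur: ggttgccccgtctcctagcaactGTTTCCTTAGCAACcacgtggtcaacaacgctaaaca
Hydin: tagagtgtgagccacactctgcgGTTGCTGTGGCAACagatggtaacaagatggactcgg
Cfap44: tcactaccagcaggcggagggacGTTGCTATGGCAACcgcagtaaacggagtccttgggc
Tekt4: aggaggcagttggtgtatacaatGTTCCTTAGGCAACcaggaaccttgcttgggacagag

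The window of Spag16 is chr1:69826844-69826903 on the plus strand, with the palindrome starting 103 bases before the RefSeq start. That of Enkur is chr2:21205341-21205400 on the minus strand, with the palindrome starting 12 bases before the start. The window of Hydin is chr8:110266933-110266992 on the plus strand, 21 bases before the start, and that of Cfap44 is chr16:44394749-44394808 on the plus strand, 27 bases before the start. In Tekt4, at chr17:25471567-25471626 on the plus strand, the palindrome begins at the start itself. These 5 genes ran from 6.59 TPM in pup 3 and 5.60 in pup 1 for Enkur to 0.13 TPM in each pup for Hydin.

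The motile cilia genes were read at low levels. Their median TPM was 2.73 in pup 3 and 2.35 in pup 1 (2.54 ± 0.269, SD, n = 2), below the median of all 21474 protein-coding genes, 4.70 TPM in pup 3 and 4.52 TPM in pup 1. In both pups 27 of the 35 motile cilia genes and 28 of all 40 genes (70.0%) reached 1 TPM, against 62.1% of protein-coding genes. Nearest to that threshold were Ak7 (1.08 TPM in pup 3 and 1.17 in pup 1) on the inside and Ttr (5.16 TPM in pup 3 and 0.85 in pup 1) and Dnah1 (0.86 TPM in pup 3 and 0.75 in pup 1) on the outside. No gene of the set was without reads: mean expected counts ran from 19.5 for Dnah11 to 1762 for Rsph9. In RNA from whole tissue, fewer cells of a type and less RNA per cell cannot be told apart.

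**Figure D1:**
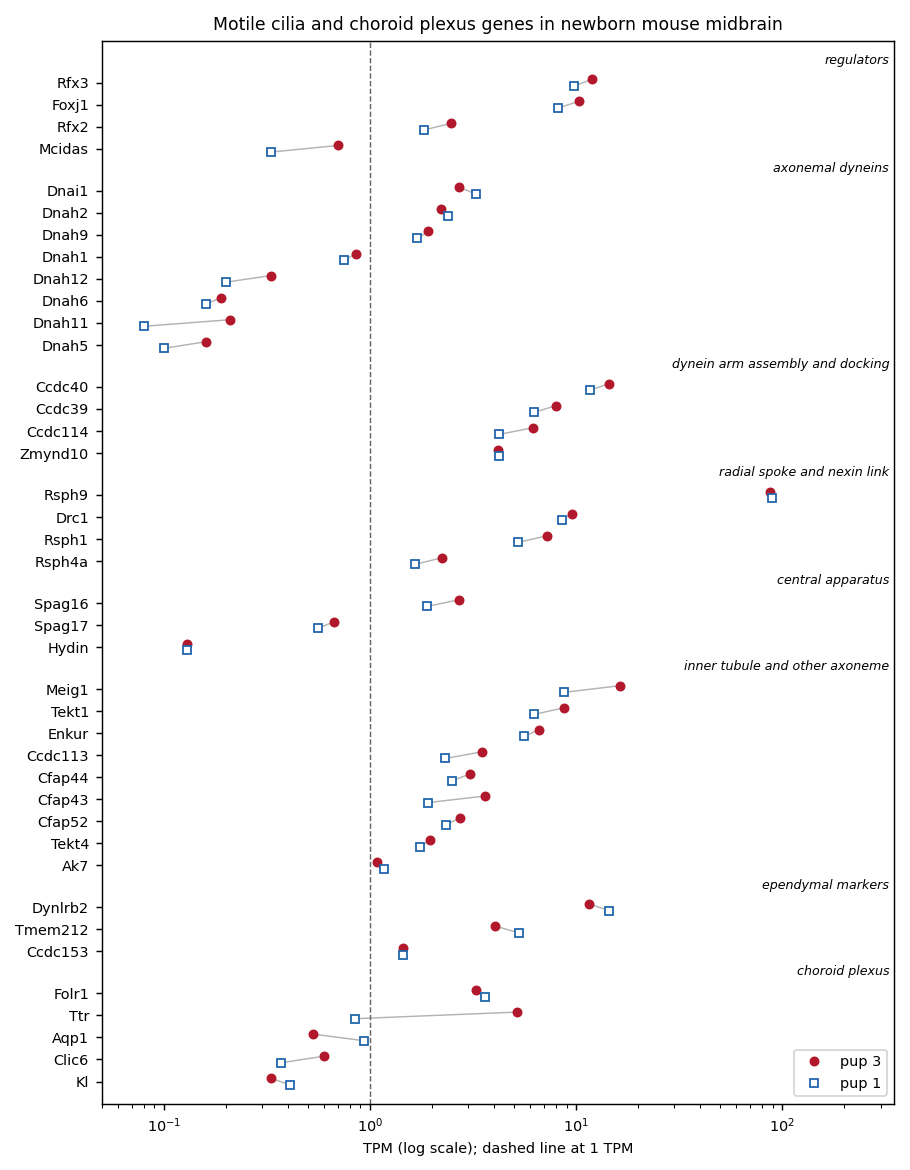
TPM of the 40 genes in pup 3 (filled circles) and pup 1 (open squares) on a log axis, grouped by role, with a dashed line at 1 TPM. Rsph9 stands alone near 88 TPM, several dynein heavy chains and Hydin lie at the low end, and Ttr has the widest gap between the pups.

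Among the regulators, the RFX factor Rfx3 and the forkhead factor Foxj1 stood highest. Rfx3 (chromosome 19, 27761721 to 28011166) had 11.9 TPM in pup 3 and 9.81 in pup 1. Foxj1, the factor that switches on the programme of motile cilia (chromosome 11, 116330704 to 116335399), had 10.3 TPM in pup 3 and 8.17 TPM in pup 1, on 658 counts in pup 3 and 477 in pup 1. Rfx2, the relative of Rfx3, was at 2.47 TPM in pup 3 and 1.82 TPM in pup 1. Rfx3 and Foxj1 were thus above the median of protein-coding genes in both pups, and Rfx2 was below it. Mcidas, the coactivator that commits cells to many cilia, was lower, at 0.70 TPM in pup 3 and 0.33 TPM in pup 1, on 40 counts in pup 3 and 17 in pup 1.

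The order among the regulators held within each library. Foxj1 exceeded Mcidas by 3.98 ± 0.40 on the log2 scale and Rfx3 exceeded Rfx2 by 2.30 ± 0.10 (0.1 TPM added to each value, SD, n = 2). Such a pair was called apart where both pups had the same sign, the mean exceeded 1 and 3 SD in size, and the authors' credibility intervals for the genes stayed clear of each other in each pup. Both pairs met this. Foxj1 was also apart from Gmnc, the geminin relative that acts before Mcidas, by 6.16 ± 0.24, with 3 counts of Gmnc in each pup (0.03 TPM). Of 20 preset pairs, 11 were apart, against 10 with 1 TPM added and 9 on counts not divided by length.

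Further genes of the multiciliation programme (17, from the lists of related genes) had medians of 2.30 TPM in pup 3 and 2.11 in pup 1, and 10 of them reached 1 TPM in both. The highest were Tfdp1, a partner of E2F factors, at 62.6 TPM in pup 3 and 60.6 TPM in pup 1, E2f4, with which multicilin acts, at 23.1 TPM in pup 3 and 23.4 TPM in pup 1, and the centriole gene Cep63 at 23.5 TPM in pup 3 and 20.4 TPM in pup 1. These genes also serve dividing cells. Genes tied more closely to multiciliated cells, named after their values were seen, lay lower: Deup1, of the deuterosome on which centrioles are made in bulk, was at 2.30 TPM in pup 3 and 2.11 TPM in pup 1. The cyclin-like gene Ccno was at 0.94 TPM in pup 3 and 0.63 TPM in pup 1, and Trp73, a transcription factor upstream of Foxj1, at 0.43 TPM in pup 3 and 0.24 TPM in pup 1. Of the 17, 10 were higher in pup 3, with a median log2 difference of 0.05.

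The axonemal dyneins, the motors, had a median gene-level TPM of 0.595 in pup 3 and 0.475 in pup 1, and 3 of the 8 reached 1 TPM in both. Dnai1, an intermediate chain of the outer arm listed in the annotation as Dnaic1, had 2.71 TPM in pup 3 and 3.28 in pup 1. Dnah2, an inner arm heavy chain, was at 2.20 TPM in pup 3 and 2.39 TPM in pup 1, and the outer arm heavy chain Dnah9 at 1.92 TPM in pup 3 and 1.70 TPM in pup 1. These 3 were followed by the inner arm chain Dnah1 at 0.86 TPM in pup 3 and 0.75 TPM in pup 1. Below it stood 4 heavy chains under 0.4 TPM, and they were read in both pups. Dnah12 had 54 counts in pup 3 and 30 in pup 1 (0.33 TPM in pup 3 and 0.20 TPM in pup 1) and Dnah6 had 60 counts in pup 3 and 46 in pup 1 (0.19 TPM in pup 3 and 0.16 TPM in pup 1), both of the inner arm. The outer arm chain Dnah5 had 61 counts in pup 3 and 36 in pup 1 (0.16 TPM in pup 3 and 0.10 TPM in pup 1). Dnah11, of the outer arm, had 26.9 counts in pup 3 and 12.2 in pup 1 (0.21 TPM in pup 3 and 0.08 TPM in pup 1).

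Within the outer arm the heavy chains were unequal in gene-level TPM. Dnah5 was below Dnah9, with a log2 ratio of -3.06 ± 0.15, and Dnah11 was below Dnah9, at -3.01 ± 0.44. In the inner arm Dnah1 was below Dnah2 at -1.41 ± 0.21, and all 3 pairs were apart. That of Dnah1 rests on the division by length and on noncoding transcripts: on counts not divided by length the log2 ratio was -0.12, not apart, and in coding transcripts Dnah1 was the higher. Dnah6 and Dnah12 were not apart (-0.39 ± 0.26), and neither were the intermediate chains Dnai1 and Dnai2 (0.45 ± 0.68). The Dnah9 and Dnah2 levels rest mostly on transcripts that do not code for the whole motor, as given further on. The Dnah9 transcript of 4484 amino acids held 11.8% of its TPM in pup 3 and 10.1% in pup 1. The ratios to Dnah9 thus compare genes and not whole motors. Undivided by length, Dnah9 had 173 counts in pup 3 and 131 in pup 1, against 61 in pup 3 and 36 in pup 1 for Dnah5.

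Proteins that assemble and dock the dynein arms reached 1 TPM in both pups for 4 of 4 genes, with medians of 7.09 TPM in pup 3 and 5.25 in pup 1. Ccdc40 was at 14.5 TPM in pup 3 and 11.7 TPM in pup 1 and its partner Ccdc39, with which it forms the ruler that spaces the arms along the doublet, at 7.99 TPM in pup 3 and 6.25 TPM in pup 1. Ccdc114, of the complex that docks outer arms, was at 6.18 TPM in pup 3 and 4.25 TPM in pup 1. Zmynd10, a cytoplasmic assembly factor for dynein arms, was at 4.20 TPM in pup 3 and 4.25 TPM in pup 1. The 3 structural members were thus higher in pup 3, and Zmynd10 was level between the pups. Ccdc39 was below Ccdc40 in gene-level TPM in each pup (log2 -0.87 ± 0.03), which did not reach 1. On counts not divided by length the log2 ratio was 0.02, and in coding transcripts Ccdc39 was the higher.

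Radial spokes and the nexin link held the gene with the highest level of the set. Rsph9, a protein of the spoke head (ENSMUSG00000023966.4, chromosome 17, 46122035 to 46144216), had 87.7 TPM in pup 3 and 89.0 in pup 1, on 1821 counts in pup 3 and 1704 in pup 1. That placed it at percentile 90.7 of protein-coding genes in pup 3 and 90.9 in pup 1. It alone made up 36.3% in pup 3 and 41.2% in pup 1 of the summed TPM of the 35 motile cilia genes, and the next highest were Meig1 at 16.2 TPM in pup 3 and Dynlrb2 at 14.5 TPM in pup 1. Its partners in the same spoke head were far lower. Rsph1 was at 7.21 TPM in pup 3 and 5.24 TPM in pup 1, and Rsph4a at 2.23 TPM in pup 3 and 1.65 TPM in pup 1. Rsph9 exceeded Rsph4a by 5.45 ± 0.31 on the log2 scale, and Rsph1 exceeded Rsph4a by 1.63 ± 0.03, both pairs apart. That of Rsph1 rests on the division by length, since on counts not divided by length the log2 ratio was -0.049. Drc1, of the nexin link, was at 9.51 TPM in pup 3 and 8.54 TPM in pup 1.

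The central apparatus was read unevenly. Spag16 had 2.71 TPM in pup 3 and 1.90 in pup 1, Spag17 had 0.67 TPM in pup 3 and 0.56 TPM in pup 1, and Hydin had 0.13 TPM in each pup, on 52 counts in pup 3 and 47 in pup 1. All 3 encode proteins around the central pair of microtubules. Spag16 exceeded Spag17 by 1.73 ± 0.19 on the log2 scale and the pair was apart.

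All 9 genes of the inner tubule and other parts of the axoneme reached 1 TPM in both pups, with medians of 3.48 TPM in pup 3 and 2.35 in pup 1. Meig1, known in mice for its role in building the sperm tail, was at 16.2 TPM in pup 3 and 8.76 TPM in pup 1, on 184 counts in pup 3 and 101 in pup 1. The tektin Tekt1, a filament protein inside the doublets, was at 8.74 TPM in pup 3 and 6.26 TPM in pup 1, and Enkur, also inside the doublets, at 6.59 TPM in pup 3 and 5.60 TPM in pup 1. These 3 led the class in both pups, with Meig1 the furthest apart between them. Ccdc113, a ciliary coiled-coil protein, was at 3.48 TPM in pup 3 and 2.32 TPM in pup 1. Cfap43 was at 3.63 TPM in pup 3 and 1.91 TPM in pup 1. Its partner Cfap44, with which it tethers an inner arm dynein in ciliates, was at 3.07 TPM in pup 3 and 2.51 TPM in pup 1. Cfap52, another protein inside the tubules, was at 2.73 TPM in pup 3 and 2.35 TPM in pup 1. The lowest of the class were the tektin Tekt4, at 1.96 TPM in pup 3 and 1.75 TPM in pup 1, and the adenylate kinase Ak7, at 1.08 TPM in pup 3 and 1.17 TPM in pup 1. Tekt1 exceeded Tekt4 by 1.94 ± 0.23 on the log2 scale, a pair apart, while Cfap44 and Cfap43 were not apart (0.07 ± 0.43).

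Because Meig1 and several tektins are also known from the testis, 8 genes of sperm were read beside them. Of these, 4 had a count of 0 in both pups (Tnp1, Tnp2, Akap4 and Smcp), which allows up to 3 counts in each library. The 8 genes together summed to 1.48 TPM in pup 3 and 1.92 TPM in pup 1, most of it from Oaz3 at 1.23 TPM in pup 3 and 1.17 TPM in pup 1.

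The 3 ependymal markers all reached 1 TPM in both pups. Dynlrb2, a dynein light chain enriched in ciliated tissue (chromosome 8, 116504974 to 116515915), had 11.6 TPM in pup 3 and 14.5 in pup 1, on 116 counts in pup 3 and 133 in pup 1. Tmem212, a membrane protein of ependymal cells, was at 4.04 TPM in pup 3 and 5.26 TPM in pup 1. Ccdc153, a coiled-coil gene used as an ependymal marker, was at 1.44 TPM in pup 3 and 1.45 TPM in pup 1. All 3 were lower in pup 3 than in pup 1, Ccdc153 by no more than 0.01 TPM, while most axoneme genes were higher. Dynlrb1, the relative of Dynlrb2 in cytoplasmic dynein, averaged 694 TPM and exceeded it by 5.73 ± 0.13 on the log2 scale. A second list of 9 ependymal markers had medians of 9.65 TPM in pup 3 and 8.40 in pup 1 and 7 that reached 1 TPM in both pups, led by 1110017D15Rik, Mia and Fam183b. The lowest was Sntn, which encodes a protein of the ciliary tip, at 0.14 TPM in pup 3 and 0.34 TPM in pup 1, on 4 counts in pup 3 and 9 in pup 1.

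Longer motile cilia genes were read at lower TPM. Length here is transcript length weighted by abundance. TPM divides by transcript length too, so the measures are not independent. Across the 35 genes, Spearman's rho between length and mean TPM was -0.62, against -0.24 across 15226 protein-coding genes whose mean count was at least 10. This describes genes that share the same libraries, and it carries no p. The 11 genes under 1500 bases had medians of 6.59 TPM in pup 3 and 5.26 in pup 1, and the 18 of 1500 to 5000 bases had 2.72 TPM in pup 3 and 2.13 TPM in pup 1. The 6 over 5000 bases (Dnah1, Dnah5, Dnah6, Dnah11, Dnah12 and Hydin) had 0.20 TPM in pup 3 and 0.145 TPM in pup 1. Dnah2 and Dnah9 fell in the class of 1500 to 5000 bases, since much of their TPM was in short transcripts. Their longest transcripts have 13704 and 13798 bases. Protein-coding genes of the same length classes had medians of 29.6 TPM in pup 3 and 31.0 in pup 1, 13.6 TPM in pup 3 and 13.4 TPM in pup 1, and 7.04 TPM in pup 3 and 6.30 TPM in pup 1. The motile cilia genes were thus lower in each class, and the gap was widest in the class over 5000 bases. Since TPM divides by length, the 6 long genes were still read on 12.2 to 276 counts a library.

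**Figure D2:**
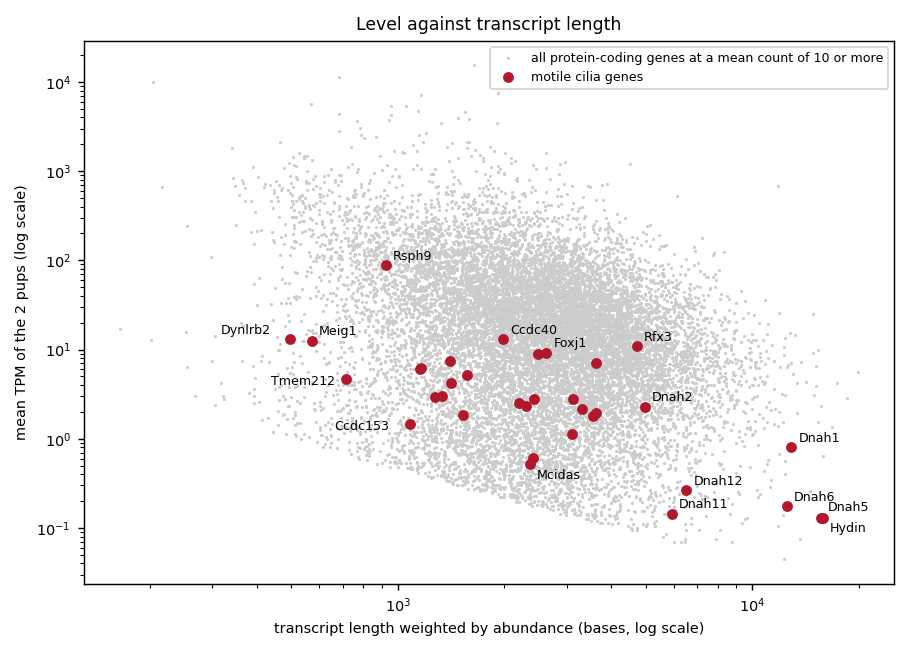
Mean TPM of the 2 pups (log axis) against transcript length weighted by abundance (log axis) for the 35 motile cilia genes (large red points) and for 15226 protein-coding genes (small grey points). The dyneins with a weighted length over 5000 bases and Hydin lie at the lower right, below most other genes of their length.

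The choroid plexus genes were low as well. Their median was 0.60 TPM in pup 3 and 0.85 TPM in pup 1 (0.725 ± 0.177, n = 2), and 1 of the 5 reached 1 TPM in both pups. That gene was Folr1, the folate receptor by which the plexus moves folate into the fluid, at 3.28 TPM in pup 3 and 3.63 TPM in pup 1 on 64 counts in pup 3 and 57 in pup 1. Ttr, the carrier of thyroid hormone and the usual defining transcript of the plexus (chromosome 18, 20665280 to 20674321), was at 5.16 TPM on 146 counts in pup 3 and at 0.85 TPM on 22 counts in pup 1. The other 3 were below 1 TPM in both pups. Clic6, a chloride channel protein, was at 0.60 TPM in pup 3 and 0.37 TPM in pup 1, and Kl, the co-receptor klotho, at 0.33 TPM in pup 3 and 0.41 TPM in pup 1. Aqp1, a water channel that red cells also carry, was at 0.53 TPM in pup 3 and 0.94 TPM in pup 1. None of the 5 preset pairs with a choroid plexus gene was apart. Foxj1 exceeded Ttr by 2.05 ± 1.51 on the log2 scale and Dynlrb2 exceeded it by 2.55 ± 1.97. Clic6 and Aqp1 had log2 ratios to Ttr of -1.96 ± 1.34 and -1.47 ± 2.26, that of Aqp1 being of opposite sign in the pups, and Clic6 to Kl stood at 0.29 ± 0.58.

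A second choroid plexus list held genes at widely different levels. Of its 18 genes, 11 reached 1 TPM in both pups, with medians of 3.96 TPM in pup 3 and 3.44 in pup 1. The highest were Igfbp2 at 232 TPM in pup 3 and 276 TPM in pup 1, Otx2 at 51.2 TPM in pup 3 and 50.3 TPM in pup 1, and Enpp2 at 44.5 TPM in pup 3 and 47.2 TPM in pup 1. Igfbp2 and Enpp2 are made by other brain and meningeal cells too, and Otx2 is a factor of the midbrain itself. The lowest was F5, coagulation factor V, at 0.03 TPM in pup 3 and 0.02 TPM in pup 1 on 6 counts in pup 3 and 3 in pup 1. Meningeal genes, another tissue that adheres to the surface, summed to 382 TPM in pup 3 and 377 TPM in pup 1 with 7 of 7 genes at 1 TPM or more. Endothelial and red cell genes, the other known sources of Aqp1, summed to 1122 TPM in pup 3 and 1104 TPM in pup 1 with 7 of 8 at that level; their part in the Aqp1 level was not tested.

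Further axoneme genes from 4 related lists lay at like levels. Of 67 genes, 45 reached 1 TPM in both pups, with medians of 2.39 TPM in pup 3 and 1.77 in pup 1. Among 15 further dynein chains the highest were Dnal4 at 43.8 TPM in pup 3 and 44.9 TPM in pup 1, Dnah7a at 10.2 TPM in pup 3 and 10.0 TPM in pup 1 and Dnal1 at 8.89 TPM in pup 3 and 5.96 TPM in pup 1, and the lowest was Dnah3 at 0.05 TPM in pup 3 and 0.04 TPM in pup 1. Dnah7a is nearly identical to Dnah7b and Dnah7c, and its counts were not whole, so its level is uncertain. Among 14 further nexin and spoke genes the highest were Rsph3b at 49.3 TPM in pup 3 and 46.2 TPM in pup 1, Gas8 at 37.1 TPM in pup 3 and 36.3 TPM in pup 1 and Nme5 at 24.9 TPM in pup 3 and 22.1 TPM in pup 1. The lowest was Fbxl13 at 0.21 TPM in pup 3 and 0.18 TPM in pup 1. The counts of Rsph3b were not whole either, so its level is uncertain too, while those of Gas8 and Nme5 were whole. Rsph9 was therefore the highest of the spoke genes but other members of that structure were also above 20 TPM.

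Of 16 further assembly and docking genes, 12 reached 1 TPM in both pups. Cfap298 was at 49.4 TPM in pup 3 and 51.4 TPM in pup 1, Dnaaf2 at 10.0 TPM in pup 3 and 8.92 TPM in pup 1 and Cfap300 at 10.1 TPM in pup 3 and 8.43 TPM in pup 1, while Pih1d3 had 0 counts in both. Of 22 further genes of the central apparatus and other axoneme parts, 15 did so, led by Cfap20 at 93.0 TPM in pup 3 and 88.2 TPM in pup 1 and Spag6l at 20.1 TPM in pup 3 and 18.8 TPM in pup 1. The lowest was Spag6, with 0 counts in pup 3 and 1 in pup 1.

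The machinery shared with primary cilia, which nearly all cells carry, was read higher than the parts of motile cilia. A list of 26 genes covered intraflagellar transport, the traffic along the axoneme, and related ciliary parts. All 26 reached 1 TPM in both pups, with medians of 20.2 TPM in pup 3 and 19.9 in pup 1. Kif3a, a kinesin motor subunit that neurons also use for axonal traffic, led at 310 TPM in pup 3 and 269 TPM in pup 1, followed by Ift46 at 142 TPM in pup 3 and 127 TPM in pup 1 and Ift20 at 126 TPM in pup 3 and 121 TPM in pup 1. The lowest, Ift80, at 3.10 TPM in pup 3 and 3.23 TPM in pup 1, was still above the median of the motile cilia genes.

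**Figure D3:**
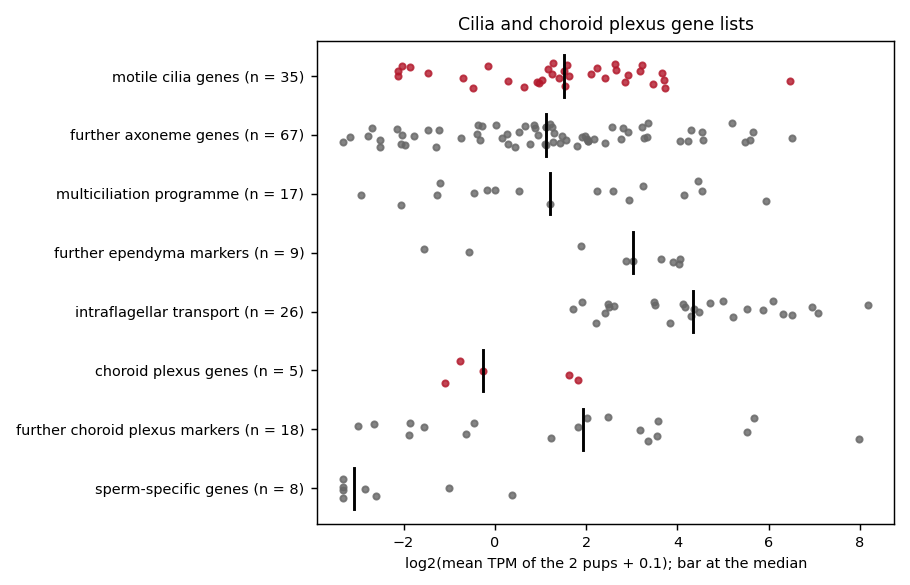
Mean TPM of the 2 pups plus 0.1, on a log2 axis, for the 35 motile cilia genes and 5 choroid plexus genes (red) and for related lists (grey), each point a gene and each bar the median of its list. The list of intraflagellar transport and related ciliary genes lies to the right of the motile cilia genes, and the sperm genes lie at the left edge.

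Many of these genes have transcripts that do not code for protein, and the deposited transcript tables divide each gene's TPM among them. A mean count of at least 50 was found for 30 genes, 11 with a single annotated transcript and 19 with several. Of those 19, 16 had the same leading transcript in both pups, and 15 were led, by mean share, by a coding one. For Rsph9 the leading transcript, which encodes 276 amino acids, held 91.7% of TPM in pup 3 and 93.0% in pup 1, so its high level was assigned to the coding form. The 4 led by noncoding transcripts were Dnah2, Dnai1, Ccdc40 and Cfap44.

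Counting transcripts annotated as protein-coding alone, 25 of the 40 genes reached 1 TPM in both pups. Transcripts without a type in the annotation used here were not counted as coding, so coding levels may be understated. For Ccdc114 the coding share was thus 46.4% in pup 3 and 44.5% in pup 1, all its other transcripts being of unknown type. Dnah2 had 0.64 TPM in pup 3 and 0.54 TPM in pup 1 in such transcripts (29.1% in pup 3 and 22.6% in pup 1 of its TPM), and Ccdc40 had 4.24 TPM in pup 3 and 3.47 TPM in pup 1 (29.3% in pup 3 and 29.7% in pup 1). Dnai1 was led by a retained-intron transcript at 76.7% in pup 3 and 49.3% in pup 1, leaving 0.63 TPM in pup 3 and 1.67 TPM in pup 1 coding. Cfap44 had 0.90 TPM in pup 3 and 0.50 TPM in pup 1 coding. Coding transcripts of Dnah9 held 53.1% in pup 3 and 59.4% in pup 1 of its TPM, and its leading one by mean share, of 457 amino acids, was far shorter than the 4250 amino acids of the Dnah1 protein. The 3 dyneins read above 1 TPM thus all had a large noncoding share, whereas the single transcript of Dnah1 is coding. Dnah11 had 0.02 TPM in pup 3 and 0.03 TPM in pup 1 in coding transcripts.

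Reads shared with other genes limit several values. Exons of 13 of the 40 genes overlap those of another annotated gene, in 12 of them on the opposite strand. A strand setting of the counting is not given in the sources used here, so such pairs cannot be told apart with certainty. The longest overlaps were between Ccdc39 and Ttc14 over 1256 bases, between Spag17 and Wdr3 over 820 bases, and between Dnah11 and Cdca7l over 642 bases. For 6 genes (Ccdc39, Zmynd10, Dnah2, Dnah9, Spag17 and Dnah11) the counts were not whole within 0.005, as happens where reads are shared.

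The pups differed in a common direction for most axoneme genes. On log2 of TPM plus 0.1, 26 of the 35 motile cilia genes were higher in pup 3, 8 were lower and Hydin was equal. Over all 17831 genes whose mean count was at least 10, a filter that all 40 genes passed, 55.8% were higher in pup 3. The median difference was 0.28 for the motile cilia genes and 0.03 for all genes. Summed over the 35 genes there were 9862 counts in pup 3, against 7619 in pup 1. After scaling to library totals this was a log2 difference of 0.23, with an exact 95% interval of 0.19 to 0.27. With a single library on each side no replicate check could be made, and the intervals cover counting error alone.

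By gene, the exact interval lay above 0 for 19 of the 40 genes, 17 of them of motile cilia, against 19.6% of all genes. It lay below 0 for 1 gene, Aqp1, against 16.8% of all genes. All 4 regulators were among the 19: Foxj1 was higher by 0.33 in log2 TPM, Rfx2 by 0.42, Rfx3 by 0.28 and Mcidas by 0.90. So were Ccdc39, Ccdc40 and Ccdc114 of the dynein arm group, Rsph1 and Rsph4a of the spokes, Tekt1, Meig1, Ccdc113, Cfap43 and Cfap44 of the inner tubule group, the dyneins Dnah5 and Dnah12, and Spag16 of the central apparatus. The lower bounds of Dnah5 (0.0009), Spag16 (0.016) and Dnah12 (0.036) were close to 0. The authors' credibility intervals for TPM were clear of each other between the pups for fewer genes. Among the 40 these were Foxj1, Rfx2, Ccdc39, Rsph1, Cfap43, Tekt1, Meig1 and Ttr. No exact interval of a single ependymal marker excluded 0. Summed over Dynlrb2, Tmem212 and Ccdc153 there were 215 counts in pup 3 and 241 in pup 1 (log2 -0.31, exact interval -0.58 to -0.04), while 4 of the 9 markers of the second ependymal list were higher in pup 3 (median log2 -0.04). Rsph9, the most deeply read gene of the set, differed by -0.02, with an interval on counts of -0.14 to 0.05. Of the 67 further axoneme genes, 49 were higher in pup 3, with a median difference of 0.16.

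Of the 40 genes, 1 differed more than 2-fold between the pups on TPM plus 0.1, against 2.12% of all genes (1.53% of all genes higher and 0.594% lower in pup 3). It was Ttr, higher in pup 3 by 2.47 on the log2 scale of TPM and by 2.59 on counts (exact interval 1.94 to 3.31). On counts Mcidas (1.09) and Dnah11 (1.03) also passed 1, each with under 60 counts in the pups together. Clic6 was higher in pup 3 by 0.57 in log2 TPM and Aqp1 lower by 0.72 (log2 -0.72, interval on counts -1.50 to -0.19). Folr1 at -0.14 and Kl at -0.25 had intervals that held 0. The 5 choroid plexus genes thus did not move as a group: 2 were higher and 3 lower in pup 3 in TPM. Of the 18 genes of the second choroid plexus list, 11 were higher in pup 3 and 0 differed more than 2-fold. Their median log2 difference was 0.04.

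Markers of neighbouring brain regions also differed between the pups. Hypothalamic genes summed to 428 TPM in pup 3 and 207 TPM in pup 1, of which Avp alone held 270 TPM in pup 3 and 124 TPM in pup 1. Of these 12, 11 were higher in pup 3, 6 of them more than 2-fold on TPM plus 0.1. Forebrain genes summed to 88.3 TPM in pup 3 and 64.3 TPM in pup 1 (Six3 stands on both lists). Of these 9, 8 were higher in pup 3, 4 of them more than 2-fold on TPM plus 0.1. Midbrain markers summed to 1049 TPM in pup 3 and 981 TPM in pup 1, of which Tcf7l2 alone held 726 TPM in pup 3 and 645 TPM in pup 1. Only 4 of the 11 midbrain markers were higher in pup 3, with a median log2 difference of -0.09. Radial glial and astrocyte genes summed to 3356 TPM in pup 3 and 3563 TPM in pup 1, with 2 of 7 higher. The subcommissural organ is a ciliated gland at the roof of the aqueduct. Its 3 listed genes, all higher in pup 3, summed to 7.73 TPM in pup 3 and 5.65 TPM in pup 1. The part of these tissue differences in the differences of Ttr and of the axoneme genes was not tested.

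**Figure D4:**
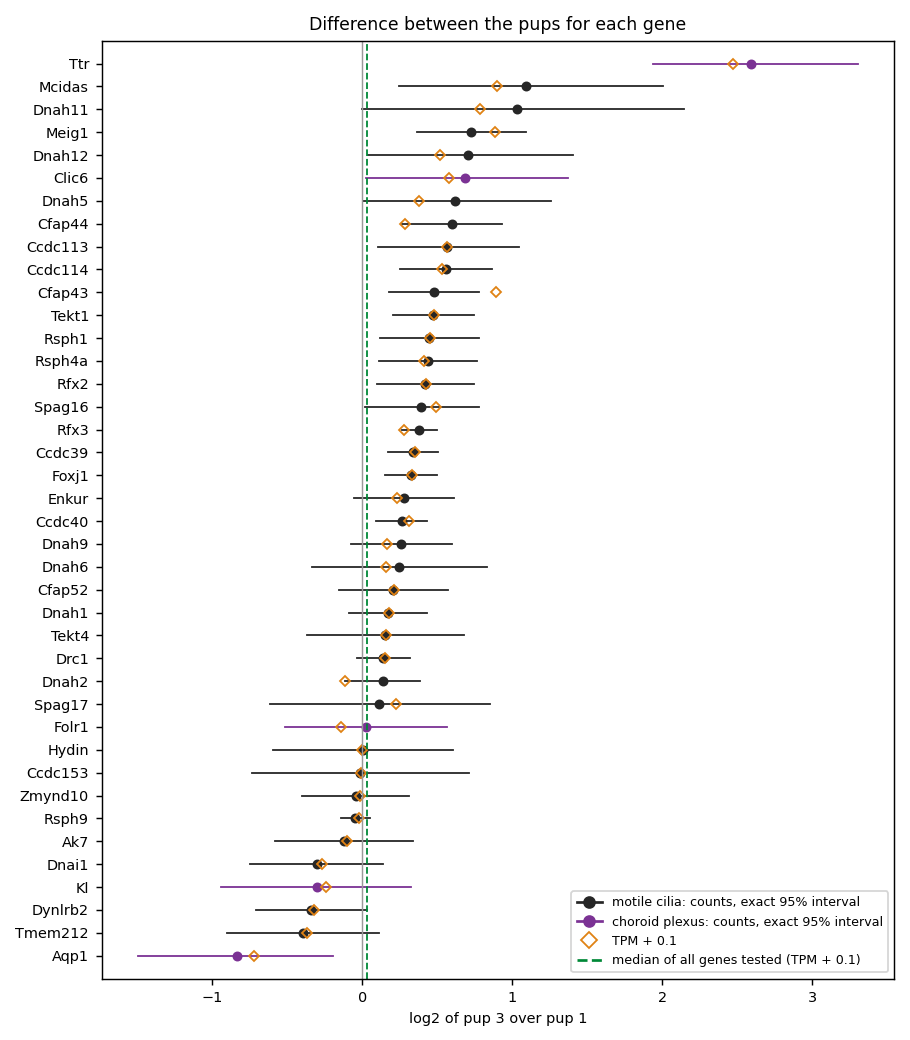
Log2 of pup 3 over pup 1 for the 40 genes, on counts scaled to library totals with exact 95% intervals (filled circles, choroid plexus in purple) and on TPM plus 0.1 (open diamonds), with a dashed line at the median of all genes tested. Most motile cilia genes lie right of the line, Ttr stands far to the right, and the ependymal markers Dynlrb2 and Tmem212 and the choroid plexus gene Aqp1 lie at the foot.

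For genes with several transcripts, TPM and counts gave unlike differences where the estimated length differed between the pups. Cfap43 was higher in pup 3 by 0.89 in log2 TPM but by 0.48 on counts, with weighted lengths of 2659 bases in pup 3 and 3564 in pup 1. Meig1 was higher by 0.88 in TPM and by 0.72 on counts, at 547 bases in pup 3 and 597 in pup 1. Dnah2 changed sign, with -0.11 in TPM and 0.14 on counts, at 5436 bases in pup 3 and 4520 in pup 1. Folr1 did so too, with -0.14 in TPM and 0.02 on counts, at 872 bases in pup 3 and 779 in pup 1. The regulators Foxj1 and Mcidas, with 1 length in both pups, kept their direction on both scales.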

How the data were processed

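Total RNA from 2 midbrains was sequenced, 1 library each. A text record that the authors deposited says that the tables derive from transcriptome alignments on build mm10 with GENCODE annotation M4. For the program, its version and the strand setting, nothing is stated: they were not given in the sources used here. The authors deposited expected counts per gene and transcript (estimates, not always whole), TPM scaled over all features in the file, posterior mean TPM with credibility bounds of unstated level, and the percent of a gene's TPM in each transcript. For the median gene among those averaging at least 1 TPM, 1 count equalled 0.0179 TPM for pup 3 and 0.0194 for pup 1.

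Symbols and coordinates came from GENCODE M21 (same build) by Ensembl identifier, found for 42462 of 43346 genes (98.0%). Dnai1 and Dnai2 are Dnaic1 and Dnaic2 there. Transcript types came from M21 too, and transcripts absent from it were not counted as coding. With 1 group and 2 animals no test was possible: an exact two-sided sign-flip test cannot go below p = 0.5. Pup differences were taken as log2 of pup 3 over pup 1 after adding 0.1 TPM, which understates differences of low genes, and as exact conditional binomial intervals (95%) on expected counts scaled to library totals. The reads carry no molecular identifiers and need not be independent, so intervals and the floor of 3 counts cover counting error only. Rounded expected counts gave scaling factors in edgeR 4.0.16 (TMM) and DESeq2 1.42.0, for alternatives only; their factors were 1.003 and 1.05 in pup 3 and 0.997 and 0.949 in pup 1. Python 3.11.15, numpy 2.4.6, pandas 2.3.3, SciPy 1.17.1 and R 4.3.3 were used. Alternatives were other added constants, filters and levels, posterior means, rescaled TPM, coding transcripts alone, counts, and each pup alone. The difference and the motif search were tested on simulated data.

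All 40 genes are named; from each related list the 3 highest by mean TPM and the lowest are named, except 1 gene that is not reported here (Deup1, Ccno and Trp73 were named after their values were seen), and tissue lists are given by sums and counts. The members and lists were chosen with earlier results of these data known.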

Additional observations from a re-analysis of the deposited data

How the results depend on the processing

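The levels depended on which transcripts and estimates entered: the motile cilia median of 2.54 TPM became 3.04 with posterior mean TPM and 1.99 with protein-coding transcripts alone, an alternative chosen after seeing the data. Leaving out each pup gave 2.35 to 2.73 TPM for that median, 0.60 to 0.85 TPM for the choroid plexus median and 28 to 29 genes at 1 TPM or more. With levels of 0.5 and 2 TPM, 32 and 20 genes passed. The motile cilia difference between the pups, 0.28, was 0.16 with 1 TPM added, which shrinks low genes, and 0.24 to 0.29 in the other alternatives; the motile cilia genes higher in pup 3 numbered 26 to 28. On TPM plus 0.1 the genes past 2-fold numbered 1. On counts scaled with edgeR TMM, DESeq2 size factors or library totals they numbered 3 (Ttr, Mcidas and Dnah11). They numbered 0 at a mean count of 100 or more, a filter that Ttr did not pass. No choroid plexus gene passed it, so their median has no value there; that median of -0.14 was 0.02 on counts and 0.01 with posterior mean TPM. The log2 ratio of Rsph1 to Rsph4a turned to -0.049 on counts not divided by length. The core RFX motif was in 25.7% of motile cilia promoters in the last 150 bases before the start, against 6.64% of all, and the palindrome in 8.57%, against 0.514%. Of 200 single-gene differences under alternatives, 7 changed sign, all of Dnah2 or Folr1. No paired analysis was possible because there was 1 group. Depth limits the genes with under 60 counts in a library, Dnah11, Mcidas, Spag17, Ccdc153 and Ttr in pup 1 among them. With protein-coding transcripts alone the median of the dyneins was 0.405 TPM and that of the central apparatus 0.145 TPM.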
